A study of Mus musculus with 5 samples.

Results

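S100 proteins and antimicrobial granule proteins were followed at the RNA level in the mouse lung through 10 genes, S100a1, S100a4, S100a6, S100a8, S100a9, S100a10, S100a11, Lcn2, Ngp and Camp, chosen by name from the 28693 genes of the count matrices. All 10 were found, each as 1 row. The series holds 5 single-cell RNA-seq libraries (10X Genomics 3′) of immune cells from the lungs of mice that carry Ms4a3-CreER and R26-tdT. The sham library came from PBS-treated mice, and the others came from mice killed 3, 7, 14 or 28 days after intratracheal bleomycin, an agent that injures the lung and leads to fibrosis. Ms4a3 drives a tamoxifen-dependent Cre in the granulocyte and monocyte lineage, and Cre activity switches on the tdT reporter; the sham mice carry both transgenes too. The mice were adults of both sexes, 7 weeks old or more, on a C57BL6/129 mixed background, and the number of mice behind each library is not given in the sources used here. With 1 library per time point, no difference between time points was tested, and the intervals printed below cover counting error only.

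S100 proteins are small calcium-binding proteins. S100a8 and S100a9 pair as calprotectin, which fills the neutrophil cytosol, withholds zinc and manganese from microbes and acts as an alarm signal at the receptors Tlr4 and Ager once released. S100a10 and S100a11 bind annexins, and S100a4 and S100a6 are known from motile and growing cells. Lcn2 (a siderophore-binding protein that starves bacteria of iron), Camp (the precursor of the cathelicidin peptide) and Ngp (a cystatin-related granule protein) are stored in the specific granules of neutrophils. Granule genes are transcribed in steps in the bone marrow, azurophil (primary) granule genes in promyelocytes, specific granule genes in myelocytes and gelatinase granule genes later, so that mature neutrophils hold many of these proteins with little of their RNA.

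The 7 S100 genes lie on chromosome 3 in the GENCODE annotation of GRCm38, from S100a1 (chr3:90511034-90514392, minus strand) to S100a10 (chr3:93555080-93564643, plus strand). S100a8 (chr3:90668978-90670035, plus strand) and S100a9 (chr3:90692632-90695721, minus strand) are neighbours in this group. S100a6 (chr3:90612882-90624181) and S100a11 (chr3:93520488-93526287) lie on the plus strand. S100a4 (chr3:90603771-90606045, plus strand) overlaps the protein-coding gene model Gm42674 on the same strand, and its UMIs are uncertain to that extent. Ngp (chr9:110419747-110423012, plus strand) and Camp (chr9:109847379-109849617, minus strand) lie on chromosome 9, and Lcn2 (chr2:32384633-32388252, minus strand) lies on chromosome 2. S100a8, S100a9, Ngp and Camp went together across cell classes, all highest in neutrophils. Within neutrophils, S100a8 and S100a9 were lowest at day 7, where Ngp and Camp were highest. The stretches upstream of these genes (RefSeq, GRCm38.p6) are printed. They are written 5′ to 3′ with matches to TTNNGNAA or its reverse complement TTNCNNAA, a letter pattern of C/EBP binding sites, in capitals.
S100a8, chr3:90668821-90668977, plus strand: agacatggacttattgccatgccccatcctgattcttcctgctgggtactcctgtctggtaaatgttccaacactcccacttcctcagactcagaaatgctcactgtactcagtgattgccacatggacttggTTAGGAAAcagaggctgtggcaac
S100a9, chr3:90695722-90695971, minus strand: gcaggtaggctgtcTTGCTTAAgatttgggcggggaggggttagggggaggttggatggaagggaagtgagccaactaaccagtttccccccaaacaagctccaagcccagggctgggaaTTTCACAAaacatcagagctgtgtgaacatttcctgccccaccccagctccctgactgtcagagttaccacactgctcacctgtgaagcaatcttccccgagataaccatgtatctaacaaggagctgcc
Ngp, chr9:110419558-110419746, plus strand: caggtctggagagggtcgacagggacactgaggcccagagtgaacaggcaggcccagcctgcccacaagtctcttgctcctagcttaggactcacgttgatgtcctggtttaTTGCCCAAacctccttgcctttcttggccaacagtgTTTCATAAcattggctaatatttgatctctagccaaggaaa
Camp, chr9:109849618-109849706, minus strand: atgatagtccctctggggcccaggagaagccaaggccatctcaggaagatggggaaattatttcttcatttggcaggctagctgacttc
In the 250 bases before the RefSeq start, the pattern was found 1 time for S100a8, 2 times for S100a9, 1 time for Lcn2 and 3 times for Ngp. One of the Ngp matches lies past the GENCODE start and outside the stretch printed. The window of Lcn2 lies wholly past the GENCODE start and is not printed. The pattern was found in 4 of the 9 members with a promoter entry, and 36.8% of the 32851 promoters of the table hold it in a window of the same length. Camp, whose levels followed those of Ngp most closely, had no match.

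Total UMIs per library ranged from 89769386 to 167506186. After the filters on genes, UMIs and mitochondrial share, 44772 of 52800 barcodes were kept, with medians of 9260 to 14254 UMIs, and 36503 of them passed the marker gate of 1 of 19 cell classes. A class name below means cells that passed that gate, and no member was used in a gate. The samples are labelled as immune cells, and 1001 epithelial cells, 445 endothelial cells and 432 fibroblasts passed a gate as well. Neutrophils, gated on Csf3r and Retnlg, numbered 1015 in sham and 685, 138, 680 and 403 at days 3, 7, 14 and 28. All 8 further neutrophil markers checked, among them Cxcr2, Il1r2 and Ly6g, were highest in this class in all 5 libraries. At day 7 the lead of Il1r2 and Sorl1 over the next class was small. The median mitochondrial share of neutrophils was 3.84% at day 7 and 0.53 to 1.61% in the other libraries. Neutrophils held few UMIs, with medians of 2303 to 3443 in 4 libraries. At day 7 the median was 9363.5, in a library that holds exactly 10000 barcodes, none under 4624 UMIs, whereas the lowest barcode of the other libraries held 500 to 502. Between 16 and 31 barcodes were shared by any pair of libraries, at most 0.374% of the smaller library.

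S100a8 and S100a9 were the leading genes of the set in neutrophils. S100a8 reached 55662 CPM (UMIs per 1000000 UMIs of the class) in sham and 39536, 20370.2, 51506 and 34977 CPM at days 3, 7, 14 and 28. S100a9 reached 61363, 65719, 25974, 59361 and 35943 CPM in the same order. Both were lowest at day 7 and highest in sham or at day 3, and together they took 11.7, 10.5, 4.63, 11.1 and 7.09% of all neutrophil UMIs. Nearly every neutrophil held them, with at most 4 cells of a library without an S100a8 UMI and at most 3 without an S100a9 UMI. Most other neutrophil markers were also lowest at day 7, whereas Ly6g was lowest at day 28, at 51.6 CPM. Cxcr2 stood at 223 CPM at day 7 and 818 to 1332 CPM in the other libraries, and Hdc at 450.2 and 1313 to 2347 CPM. Il1r2 stood at 173 CPM at day 7, beside 144 in the next class, and Sorl1 at 179 beside 139.9. The part of other cells in the day 7 class was not tested. When neutrophils under 4624 UMIs were left out of every library, S100a8 stood at 38579, 42525, 20370.2, 45455 and 12214 CPM. Day 28, on 33 cells, was then the lowest, and day 7 stayed below the other 3 libraries.

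No other class came near these levels. The next class stood 10.3 to 96.0 times lower for S100a8 and 10.2 to 196 times lower for S100a9. For S100a8 it was another class in each library. Within libraries, neutrophils were compared with classical monocytes, a blood-derived class of the same lineage, on UMIs summed per class and library in the 4 libraries with at least 20 cells of each. In the fit over 9260 genes, 3089 (33.4%) passed an adjusted p of 0.05 (edgeR quasi-likelihood test with library as a block, Benjamini-Hochberg), and 9 of the 10 members did, 7 higher and 2 lower in neutrophils. S100a8 was higher by 8.17 ± 0.95 on the log2 scale (SE from the quasi-likelihood F, n = 4 libraries, edgeR adjusted p = 0.000923). S100a9 was higher by 8.76 ± 1.05 (edgeR adjusted p = 0.00105). The median log2 difference of the 10 members was 5.32, beside -0.07 over all genes tested.

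**Figure D1:**
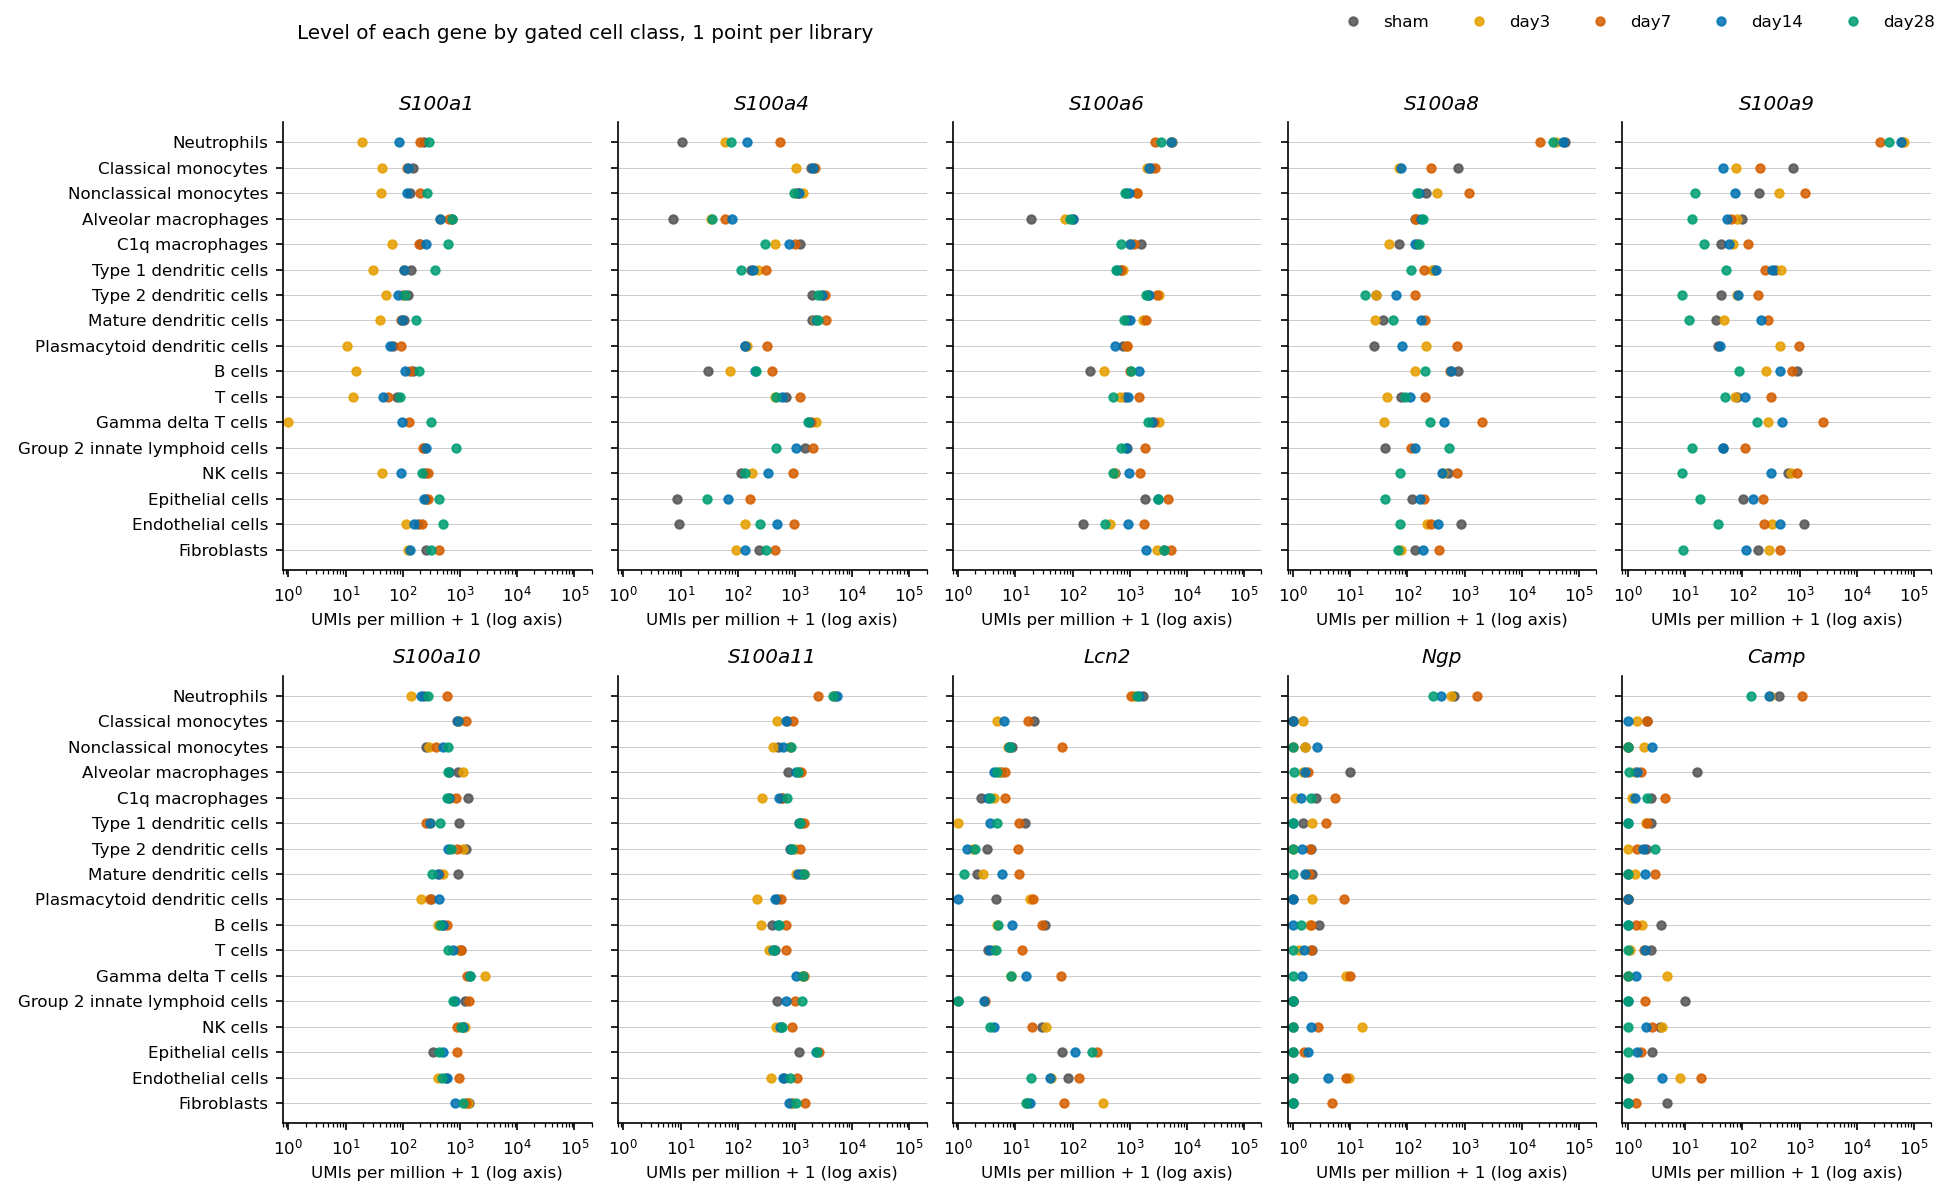
Level of the 10 genes (CPM plus 1, log axis) in gated cell classes, with 1 point per library and a colour for each time point; class and library sums under 20 cells and 2 small classes are not drawn. S100a8, S100a9, Lcn2, Ngp and Camp stand apart in neutrophils in all 5 libraries, whereas S100a1 leads in alveolar macrophages in 4 libraries and S100a6 is lowest there in all 5.

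Lcn2, Ngp and Camp were also highest in neutrophils in all 5 libraries. Lcn2 stood at 1694, 1207, 1039, 1429.6 and 1332 CPM in neutrophils from sham to day 28. Ngp stood at 648, 579, 1637, 382 and 282 CPM. Camp stood at 433, 301, 1107, 287 and 140.4 CPM. Ngp and Camp were highest at day 7, and Lcn2 was lowest there. Against classical monocytes, Lcn2 was higher by 7.55 ± 0.61 on the log2 scale (edgeR adjusted p = 0.000155). Monocytes held no Ngp UMI in 3 of the 4 libraries, so that Ngp was at least 371-fold higher in neutrophils in sham, at least 1899-fold at day 7 and at least 97.5-fold at day 14, each against a floor of 3 UMIs in the monocytes of that library. At day 3, with 10 monocyte UMIs, it was 1132-fold higher (95% Poisson interval 616 to 2361). Camp, with 0 to 9 monocyte UMIs, was at least 73.4-fold higher at day 14 and 372-fold (103 to 3074), 654-fold (345 to 1431) and 963-fold (376 to 3534) higher in sham and at days 3 and 7. Both passed the test (edgeR adjusted p = 3.12e-05 for Ngp and 1.33e-05 for Camp).

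The RNA of Ngp and Camp was held by few neutrophils, that of Lcn2 by many. After each cell was thinned to 1000 UMIs, the share of neutrophils with an Ngp UMI was 1.69% in sham and 3.52, 13.8, 3.28 and 2.28% at days 3, 7, 14 and 28. The share with a Camp UMI was 1.19, 1.32, 10.1, 1.19 and 0.759%. The share with an Lcn2 UMI was 46.9, 39.9, 37.0, 44.1 and 51.1%, or 60.9 to 66.7% without thinning. In B cells, which should lack these genes, the thinned share was 0 to 0.239% for Ngp and 0 to 2.46% for Lcn2, at medians of 3296.5 to 7304.5 UMIs before thinning. For Lcn2, the 95% binomial intervals of neutrophils and B cells were apart in every library. For Ngp they were apart at days 3, 7 and 28 and met in sham and at day 14, and for Camp they were apart at day 7 and met in the other 4 libraries.

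Nearly all UMIs of Ngp lay in 91 of the 44772 barcodes. These barcodes held 10 or more Ngp UMIs each, a limit chosen after the values were seen, and numbered 10 in sham and 17, 45, 13 and 6 at days 3, 7, 14 and 28. They held 94.2 to 98.2% of all Ngp UMIs of their library, 95.1 to 97.9% of all Camp UMIs and 13.1 to 46.0% of all Lcn2 UMIs. The gap below them was not empty, with 12 barcodes at 5 to 9 UMIs and 16 at 10 to 19, and the highest barcode held 1025. Camp followed in the same barcodes, since 63 of the 66 barcodes with 10 or more Camp UMIs were among the 91. Of the 91, 54 lay in the neutrophil gate, 28 in no class and 9 in another class. At day 7, 20 of 45 passed no gate. Predicted doublets made up 15 of the 91, with 1 in sham and 8, 5, 1 and 0 at days 3, 7, 14 and 28. At day 3 they were thus 8 of 17. A UMI of the proliferation gene Mki67 was found in 14 of the 91, and no neutrophils of like depth were set beside them.

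**Figure D2:**
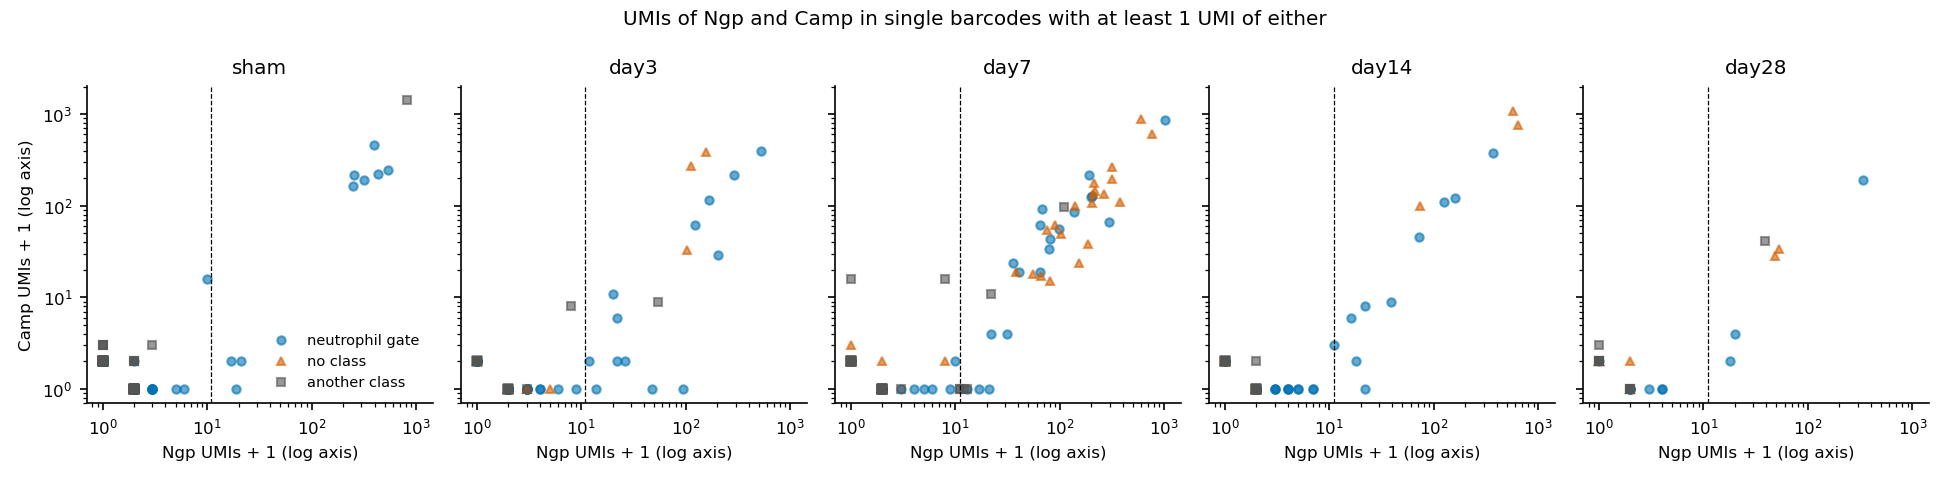
UMIs of Ngp and Camp plus 1 (log axes) in each barcode with at least 1 UMI of either, by library; the symbol gives the gate and the dashed line marks 10 Ngp UMIs. Barcodes right of the line carry 94.2 to 98.2% of all Ngp UMIs of a library, and in most of them Camp rises with Ngp.

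Without these barcodes, the Ngp level of neutrophils fell to 15.7, 22.5, 23.7, 24.6 and 9.59 CPM, and that of Camp to 9.87, 2.63, 2.71, 1.76 and 0.737 CPM. Lcn2 kept 1386, 959.6, 305, 1198 and 1147 CPM. The high Ngp level at day 7 thus went with 19 of 138 neutrophils. Among neutrophils of at least 4624 UMIs, the share with 10 or more Ngp UMIs was 10.7% in sham (95% binomial interval 5.02 to 19.4, n = 84 cells), 9.32% at day 3 (4.75 to 16.1, n = 118), 13.8% at day 7 (8.5 to 20.7, n = 138), 18.5% at day 14 (9.25 to 31.4, n = 54) and 9.09% at day 28 (1.92 to 24.3, n = 33). These intervals overlap, and day 7 is not the highest within the gate. The shares leave out barcodes outside the neutrophil gate, which at day 7 were 20 in no class and 6 in another class. Of all kept barcodes, with no such floor, 45 of 9493 held 10 or more Ngp UMIs at day 7 and 10 of 9238 in sham. At days 3, 14 and 28 they were 17 of 8004, 13 of 7757 and 6 of 10280.

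The Ngp-rich barcodes were set against the 2747 gated neutrophils with no Ngp UMI, as a description with no test. Predicted doublets were kept in both groups. Of the 8 specific granule genes, Ltf (lactoferrin), Itgb2l, Cd177, Mmp8, Cybb and Pglyrp1 were higher in the Ngp-rich barcodes in 5 of 5 libraries. The ratio was 333 to 5089 for Ltf and 58.1 to 89.2 for Itgb2l in the 4 libraries with a ratio, 15.3 to 69.5 for Cd177, 2.22 to 14.6 for Mmp8 and 1.6 to 5.63 for Pglyrp1. Fcnb was higher in 4 libraries, with 65 UMIs in the 91 barcodes and 2 in the others, and Hp (haptoglobin) went against the rest, higher in 2 of 5 libraries with ratios of 0.643 to 2.66. Among the members, Lcn2 was 6.56 to 29.1 times higher, S100a8 2.57 to 9.29 times and S100a9 2.02 to 8.26 times, in 5 of 5 libraries. S100a11 was higher in 1 of 5 libraries and S100a6 in 3 of 5.

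Of the gelatinase and late genes, Mmp9 (1.19 to 5.52), Wfdc21 (3.29 to 5.12) and Padi4 (1.46 to 4.62) had ratios over 1 in 5 of 5 libraries, whereas Slpi was higher in 1 of 5. Lyz2 was higher in 4 of 5, and Mmp25, with 19 UMIs in the 91 barcodes, in 3 of 5. The neutrophil gate gene Retnlg was 2.6 to 8.01 times higher. The azurophil list was mixed too. Its gene Serpinb1a, which encodes a cytosolic protease inhibitor rather than a granule protein, was 4.16 to 17.8 times higher in 5 of 5 libraries. Ctsc was higher in 1 of 5. Mpo, Elane and Ctsg had 0 UMIs in the 91 barcodes and 8, 10 and 3 in the 2747 neutrophils, too few for a difference to be detectable. Prtn3 had 3 and 27. Of the transcription factors, Cebpe was 9.44 to 21.1 times higher in the 4 libraries with a ratio. Cebpb was at 0.278 to 0.808 of the level and Spi1 at 0.42 to 0.927, both lower in 5 of 5. The receptor gene Cxcr2 was lower in 4 of 5 libraries, and Il1r2 in 5 of 5 (0.209 to 0.999). Among partners and receptors, Anxa1 was 2.16 to 5.62 times higher in 5 of 5 libraries. The formyl peptide receptor gene Fpr2 was higher in 4 of 5, and Anxa2 was lower in 5 of 5 (0.523 to 0.83). The ratio of the other gate gene, Csf3r, was low, 0.12 to 0.242. All neutrophils without Ngp had passed the gate, as had 54 of the 91 barcodes. The part of the gate in this ratio was not tested. The barcodes were deep, with medians of 6266.5 to 9221.5 UMIs, whereas neutrophils without Ngp had medians of 2299.5 to 3348 UMIs in 4 libraries and 10891 at day 7. The part of depth in these ratios was not tested.

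**Figure D3:**
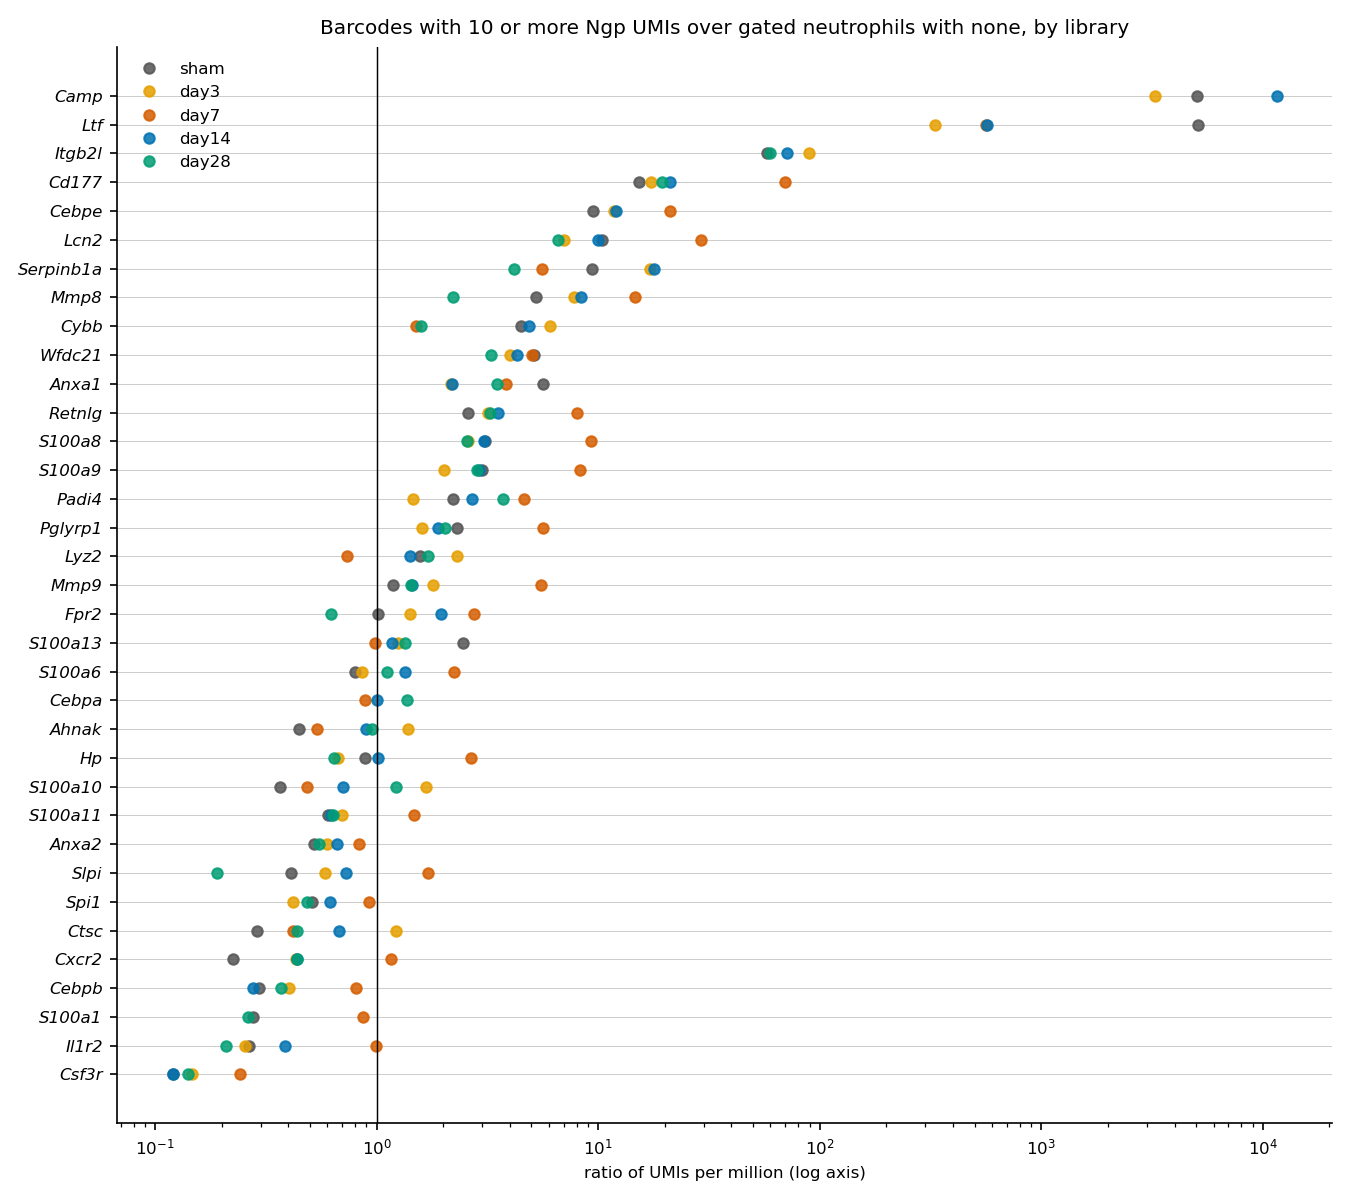
Ratio of the level (CPM, log axis) in barcodes with 10 or more Ngp UMIs to that in gated neutrophils with none, with 1 point per library, for each member, listed gene and neutrophil marker with a ratio in at least 3 libraries, ordered by the median. Camp, Ltf, Itgb2l, Cd177, Cebpe and Lcn2 lie right of 1 in every library drawn, S100a8 and S100a9 lie nearer to 1, Hp lies on both sides, and Csf3r, Cebpb and Anxa2 lie left of 1.

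A single barcode of the sham library held most of the Ngp and Camp UMIs outside neutrophils there. It passed the gate of alveolar macrophages and held 7 UMIs of Ear2 and none of Marco, both gate genes of these cells. It also held 6 UMIs of Retnlg, 1 of Csf3r and 13 of Mki67. Of the UMIs of all 5421 alveolar macrophages of sham, it carried 812 of 884 for Ngp, 1409 of 1490 for Camp, 3968 of 13331 for S100a8 and 234 of 456 for Lcn2. Without it, the alveolar macrophage level fell from 9.01 to 0.734 CPM for Ngp, from 15.2 to 0.826 for Camp and from 136 to 95.4 for S100a8.

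Outside neutrophils, UMIs of S100a8 and S100a9 were found in every class, at low levels. Neutrophils held 39.2 to 86.2% of all S100a8 UMIs of a library (median 76.4%) and 42.7 to 88.6% of all S100a9 UMIs (median 84.1%). Barcodes of no class held 5.67 to 32.3% of S100a8 and 5.13 to 30.2% of S100a9. In classical monocytes, S100a8 stood at 761, 71.1, 261 and 77.0 CPM in sham and at days 3, 7 and 14. In T cells it stood at 76.6, 43.4, 204, 111 and 88.0 CPM, and in B cells at 757, 134, 555, 566 and 198 CPM. Thinned to 1000 UMIs, 2.46 to 12.3% of B cells and 2.9 to 9.27% of T cells held an S100a8 UMI, beside 94.2 to 99.9% of neutrophils. Single barcodes held much of these sums, as in sham, where 1 of 145 classical monocytes held 30.0% of the class's S100a8 UMIs. When barcodes outside the neutrophil gate with 2 or more Retnlg UMIs were left out, a step added once the data had been seen, the range over libraries went from 71.1-761 to 48.3-212 CPM in classical monocytes and from 134-757 to 25.6-182 CPM in B cells. The ranges of both classes overlapped with and without these barcodes.

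The ratio of S100a9 to S100a8 differed between classes. In neutrophils it was 1.10 in sham and 1.66, 1.28, 1.15 and 1.03 at days 3, 7, 14 and 28. B cells gave 1.2, 1.96, 1.33, 0.809 and 0.445, and T cells 1.03, 1.69, 1.58, 1.01 and 0.556. Alveolar macrophages had lower ratios in every library, 0.715, 0.564, 0.447, 0.311 and 0.0636. Their S100a8 level was 136, 139, 139.6, 169.7 and 189 CPM, whereas their S100a9 level was 97.1, 78.6, 62.5, 52.7 and 12.0 CPM. C1q macrophages, the interstitial type, gave 0.583, 1.44, 0.87, 0.428 and 0.132. At day 28, the 95% intervals of neutrophils (1.01 to 1.04) and alveolar macrophages (0.058 to 0.0696) were far apart, and other classes of that library were low too, with 0.107 in NK cells, 0.123 in fibroblasts and 0.0227 in group 2 innate lymphoid cells. These 3 rest on 2 to 7 S100a9 UMIs each. B and T cells also lay below neutrophils at day 28. At day 3, the interval of C1q macrophages (1.28 to 1.63) lay just below that of neutrophils (1.65 to 1.67). Without the barcodes with Retnlg, alveolar macrophages of sham held 84.3 CPM of S100a8 and 46.7 of S100a9. The part of free neutrophil RNA in each level was not tested.

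**Figure D4:**
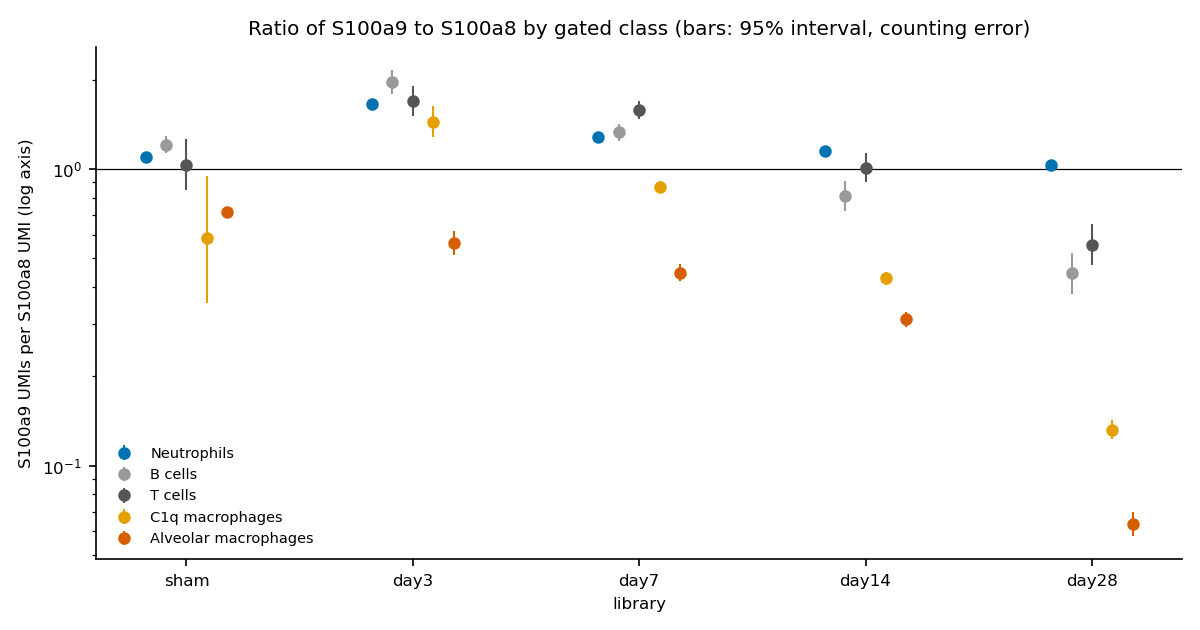
S100a9 UMIs per S100a8 UMI (log axis) by library in 5 gated classes; bars are 95% intervals for counting error. Neutrophils lie between 1.03 and 1.66 in all libraries, and alveolar macrophages lie under 1 in all of them, down to 0.0636 at day 28.

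S100a8 and S100a9 did not pass the tests between macrophage and monocyte classes. Classical monocytes and C1q macrophages were compared in 4 libraries, where 709 of 10779 genes (6.58%) passed. S100a8 differed by 0.95 ± 0.59 on the log2 scale (edgeR adjusted p = 0.382) and S100a9 by 0.97 ± 0.65 (edgeR adjusted p = 0.419). With no filter on low counts both passed, at 0.91 (adjusted p = 0.0013) and 0.93 (adjusted p = 0.0012). Alveolar and C1q macrophages were compared in all 5 libraries, where 5140 of 12256 genes (41.9%) passed. The differences were 0.44 ± 0.27 for S100a8 (edgeR adjusted p = 0.242) and -0.33 ± 0.32 for S100a9 (edgeR adjusted p = 0.451). A p above the threshold does not show equal levels.

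S100a11 and S100a6 were also abundant in neutrophils, whereas S100a4 and S100a10 were not. S100a11 stood at 5054, 4746, 2530.3, 5359 and 4642 CPM in neutrophils from sham to day 28, and S100a6 at 5550.2, 5216, 2739, 5301 and 3476 CPM. Against classical monocytes, S100a11 was higher by 3.10 ± 0.48 on the log2 scale (edgeR adjusted p = 0.00283). S100a6 was higher by 1.45 ± 0.43 (edgeR adjusted p = 0.0304). The S100a6 call was lost without sham (edgeR adjusted p = 0.135), without day 3 (0.15) and without day 14 (0.134). In these fits the calls over all genes fell too, from 3089 to 1343, 1182 and 1583. Among cells of at least 4624 UMIs the difference was 0.79 and did not pass (edgeR adjusted p = 0.0826).

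S100a4, a gene of motile cells, ran the other way. It stood at 9.66, 59.2, 550.2, 146 and 76.4 CPM in neutrophils, and at 1909, 1054, 2213 and 2101 CPM in classical monocytes of sham and days 3, 7 and 14. It was lower in neutrophils by 3.74 ± 0.76 on the log2 scale (log2 difference -3.74, edgeR adjusted p = 0.00787), and no library of one class reached the levels of the other. S100a10 stood at 233, 139, 591, 211 and 277 CPM in neutrophils, the lowest of all classes in 4 of 5 libraries. Its log2 difference from classical monocytes was -1.53 ± 0.28 (edgeR adjusted p = 0.00531). At day 7 both genes were highest, in the library whose neutrophils were deepest. The part of other cells in these day 7 levels was not tested. Among neutrophils of at least 4624 UMIs, S100a4 stood at 22.7, 105, 550.2, 276 and 117 CPM, again highest at day 7. S100a10 stood at 585, 312, 591, 448 and 500.2 CPM among these cells, where sham and day 7 were nearly level.

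By the median over libraries, type 2 dendritic cells, mature dendritic cells and classical monocytes led for S100a4. Type 2 dendritic cells held 1979, 3017, 3294, 2922 and 2506 CPM, and mature dendritic cells held 2001 to 3434 CPM. Type 1 and plasmacytoid dendritic cells were far lower, with medians of 187 and 139 CPM. For S100a10 the highest medians were those of gamma delta T cells (1304 to 2701 CPM in 4 libraries) and fibroblasts (801 to 1452 CPM), and at day 7 group 2 innate lymphoid cells stood highest, at 1406 CPM. Except for the step from neutrophils to the next class in S100a8, S100a9, Lcn2, Ngp and Camp, and 3 steps lower down in S100a6 and Lcn2, neighbouring classes in the order of median levels overlapped in their ranges over libraries. For S100a1, S100a4, S100a10 and S100a11, all 17 neighbouring pairs overlapped.

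Classical monocytes held more S100a4 and S100a6 than C1q macrophages, and these 2 were the members called among the 8 tested. S100a4 was higher by 1.11 ± 0.16 (edgeR adjusted p = 0.0108) and S100a6 by 0.95 ± 0.16 on the log2 scale (edgeR adjusted p = 0.0153). In C1q macrophages, S100a4 stood at 1212, 450.3, 983, 784 and 298 CPM and S100a6 at 1573, 1023, 1204, 1026 and 691 CPM, both lowest at day 28. Both calls were lost without the library block (adjusted p = 0.227 and 0.116) and without day 7 (0.0909 and 0.137), and that of S100a6 was lost without day 14 (0.0561).

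Alveolar macrophages had the lowest S100a6 of all classes in 5 of 5 libraries. S100a6 stood there at 17.7 CPM in sham and at 71.5, 100.2, 100.3 and 87.9 CPM after bleomycin. S100a4 stood at 6.5, 33.3, 58.2, 78.1 and 34.5 CPM. For both genes the sham library was the lowest, at 5421 cells, and the 4 bleomycin libraries lay above it. Against C1q macrophages, where 4 of 10 members were called beside 41.9% of all genes tested, the log2 differences were -4.34 ± 0.64 for S100a4 (edgeR adjusted p = 0.00171) and -4.11 ± 0.50 for S100a6 (edgeR adjusted p = 0.000673). S100a11 was higher in alveolar macrophages by 0.88 ± 0.28 (edgeR adjusted p = 0.04), a call lost without day 7 (0.113) or day 14 (0.0838).

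S100a1 was highest in alveolar macrophages. It stood at 725, 442, 648, 439.6 and 727 CPM there, the highest class in 4 of 5 libraries. These cells held 88.7% of all S100a1 UMIs of sham, where they were 58.7% of kept barcodes. In the other libraries they held 30.0 to 49.0% and were 6.81 to 19.9% of kept barcodes. They were also deep, with medians of 14427 to 23669.5 UMIs, beside 9260 to 14254 UMIs over all kept barcodes of a library. The part of depth in these shares was not tested. C1q macrophages held 195, 63.5, 187, 255 and 607 CPM, so that the classes were nearest at day 28. S100a1 was higher in alveolar macrophages by 1.34 ± 0.42 on the log2 scale (edgeR adjusted p = 0.0355), a call lost without sham (0.0931), without day 7 (0.11) and without the library block (0.182). Lymphocytes held S100a1 UMIs too, with 12.3 to 86.6 CPM in T cells and 14.4 to 188 CPM in B cells, lowest at day 3 and highest at day 28 in both. Neutrophils ranged from 18.6 CPM at day 3 to 281 CPM at day 28 and did not pass the test against monocytes (log2 difference 0.41 ± 0.29, edgeR adjusted p = 0.291), but did at 0.96 among cells of at least 4624 UMIs (edgeR adjusted p = 0.0498). The part of free alveolar macrophage RNA in these levels was not tested.

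Epithelial cells also held Lcn2. It stood there at 64.7 CPM in sham, 262 at day 7, 109.6 at day 14 and 216 at day 28, the next class after neutrophils in the last 3. In sham, 1 of 74 cells carried 45.5% of these UMIs, and the level was 32.7 CPM without 6 barcodes that held Retnlg. Against alveolar macrophages in these 4 libraries, where 7352 of 12877 genes (57.1%) passed, 4 of the 8 members tested were higher and 1 lower. Lcn2 was higher by 5.27 ± 0.22 on the log2 scale (edgeR adjusted p = 6.92e-06) and S100a6 by 5.71 ± 0.58 (edgeR adjusted p = 9.39e-05). S100a11 was higher by 1.16 ± 0.22 (edgeR adjusted p = 0.00271) and S100a1 lower, with a log2 difference of -0.94 ± 0.18 (edgeR adjusted p = 0.00282). S100a9 was higher by 1.22 ± 0.24 (edgeR adjusted p = 0.00317), a call lost without the library block (1.40, adjusted p = 0.144). Its level of 17.2 to 225 CPM overlapped that of T cells, 49.0 to 321 CPM. Without barcodes with Retnlg, it fell from 102, 225 and 153 to 35.8, 86.0 and 61.1 CPM in sham and at days 7 and 14. In sham it then lay below alveolar macrophages without such barcodes, at 46.7 CPM, and at days 7, 14 and 28 above them. In the epithelial cells themselves, S100a6 stood at 1854, 4667, 3151 and 3123 CPM and S100a11 at 1196, 2638, 2301 and 2384 CPM, both lowest in sham and highest at day 7. Fibroblasts of day 3 held 339 CPM of Lcn2, beside 14.3 to 70.4 CPM in the other libraries, and 1 of 86 cells carried 35.1% of these UMIs.

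**Figure D5:**
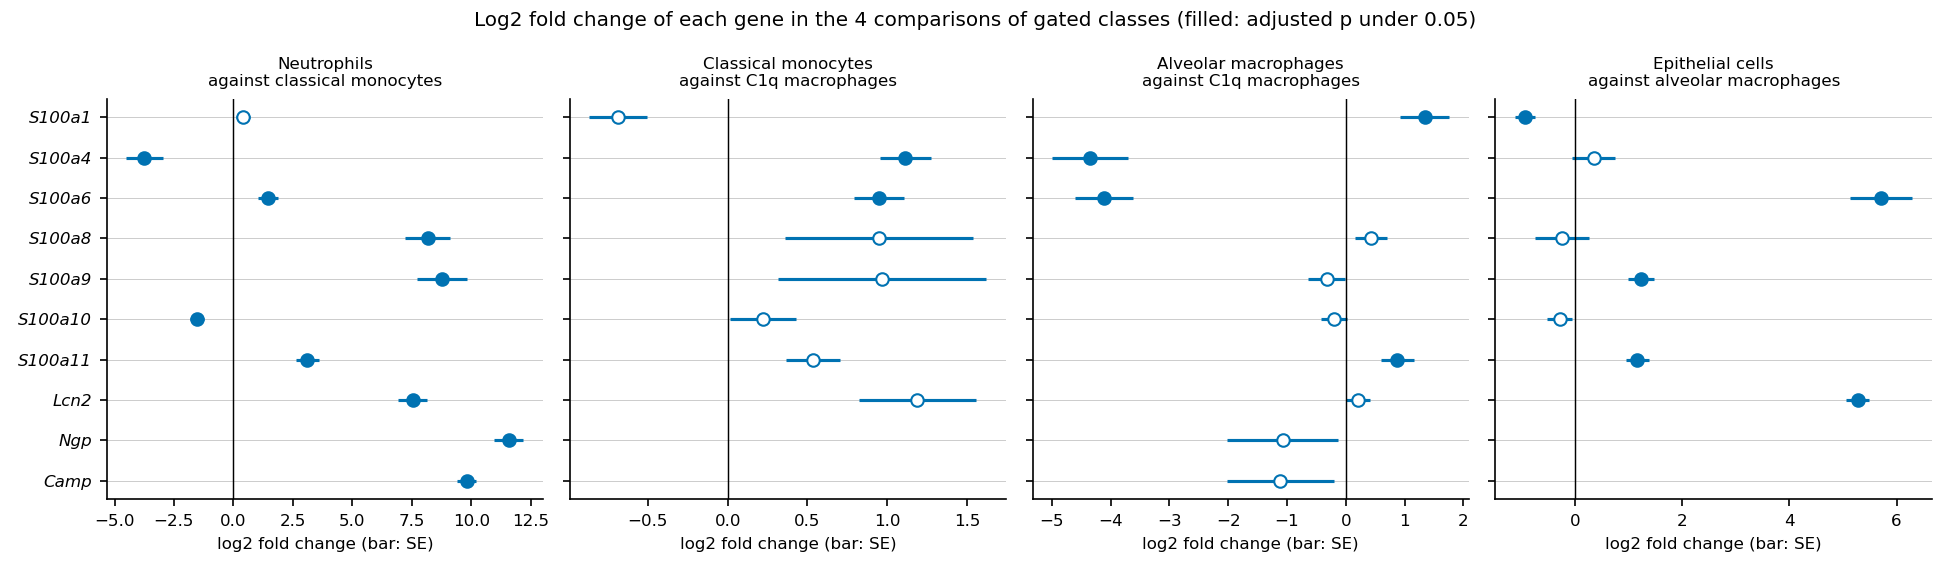
Log2 fold change of each member in the 4 comparisons of gated classes (first named class over second), with SE bars; filled points passed an edgeR adjusted p of 0.05, open points did not, and members under the count filter have no point. The calprotectin and granule genes lie 7.55 to 11.57 above 0 in the first panel, S100a4 and S100a6 lie under -4 in the third, and Lcn2 and S100a6 lie over 5 in the last.

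Other genes of the granules and their partners were counted from lists. In neutrophils against classical monocytes, where 33.4% of all genes passed and their median log2 difference was -0.07, 5 of the 7 specific granule genes tested were higher and 1 was lower, with a median log2 difference of 3.15. Itgb2l was the largest at 9.32, and the lower gene was Cybb (-1.17), a subunit of the phagocyte oxidase. Of 6 gelatinase and late genes, 5 were higher, led by the gelatinase Mmp9 (8.37), with a median of 3.53. Of 3 genes tested from the azurophil list, the inhibitor gene Serpinb1a was higher (1.23) and 2 were lower, the lowest Prtn3 at -4.05. Mpo, Elane and Ctsg were too low to be tested. Their RNA was almost absent from neutrophils, with 0 to 7 UMIs of each in any library. Among partners and receptors, 4 of 6 were higher, led by the formyl peptide receptor Fpr2 (2.53), and 2 were lower, the lowest Ahnak (-2.08), which binds S100a10. Of 4 granulocyte transcription factors tested, 3 were higher, led by Cebpe (1.96), and Cebpa was lower (-0.88). From the list of other S100 genes, S100a13 and S100pbp, a gene of an S100-binding protein, were tested, and neither passed.

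In classical monocytes against C1q macrophages, 6.58% of all genes passed. Of 5 genes tested from the azurophil list, 2 were higher, Elane at 7.50 and Ctsg at 5.97. Both fell under the count filter in the neutrophil comparison, which used the same monocyte sums, so these differences may rest on few UMIs. Of 6 specific granule genes 3 were higher, with Cd177 the largest at 4.14, and none was lower. Of 8 partners and receptors Fpr2 was higher (1.46) and Slc22a17, the receptor of Lcn2, lower (-2.27). Slpi was lower (-1.61) and Cebpe higher (2.95), each as the 1 called gene of its list.

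In alveolar against C1q macrophages, where 41.9% of all genes passed, 4 of 8 partners and receptors were higher, with Fpr2 the largest at 3.81, and P2rx7 was lower (-0.97). Of 6 specific granule genes 2 were higher, led by Mmp8 (0.81), and 2 were lower, the lowest Hp (-2.14). Of 5 gelatinase and late genes Wfdc21 was higher (4.28) and Padi4 lower (-5.46). Of 3 genes tested from the azurophil list, Serpinb1a was higher (2.33) and Prtn3 lower (-5.37). Of 3 transcription factors 2 were higher, led by Cebpb (0.57), and Cebpa was lower (-0.53).

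In epithelial cells against alveolar macrophages, 57.1% of all genes passed. Of 6 genes tested from the other S100 list, S100pbp among them, 4 were higher, from S100b at 5.31 to S100a14 at 10.09. Of 8 partners and receptors 2 were higher, led by Ager (7.29), the S100 receptor of alveolar epithelium and a gate gene here, and 4 were lower, the lowest Fpr2 (-4.31). Of 6 specific granule genes 4 were higher, led by Ltf (8.64), and 2 were lower, Mmp8 (-3.49) and Cybb (-3.43). Of 5 gelatinase and late genes 2 were higher, led by Padi4 (3.94), and 3 were lower, the lowest Wfdc21 (-4.25). Both genes tested from the azurophil list were lower, the lowest Serpinb1a (-3.07), as were all 3 transcription factors tested, the lowest Spi1 (-3.38).

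Across 82 sums of class and library with at least 20 cells, the genes outside the 10 members most like S100a8 in log2(CPM + 10) were Retnlg (Pearson r = 0.924), Cxcr2 (0.906) and Stfa2l1 (0.901), and those most like Ngp were Ly6g (0.939), Gm17619 (0.927) and Gm5483 (0.921). Those most like S100a1 were Cd9 (0.903), C77080 (0.826) and Atp6v0d2 (0.821). S100a6 had no close match, the nearest being Ptgs2 (0.648), Thbs1 (0.583) and Vmp1 (0.58). Among the members, Ngp and Camp went together most closely (r = 0.982), followed by S100a8 and S100a9 (0.907), and S100a4 fell below 0 with S100a8 (-0.289). The sums share libraries and differ in depth, Retnlg is a gate gene, and the r values are a description.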

How the data were processed

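The authors aligned reads to mm10 with CellRanger 6.0.0, and the deposited values are raw counts of UMIs, 1 for each gene in each barcode. Kept barcodes had 300 to 8000 genes, between 800 and 60000 UMIs, and a mitochondrial share under 15%. Each marker's log count per 10000 UMIs was standardized over cells (limited to 6), and a cell took the class with the highest mean score if this was at least 0.5, led by 0.25 and rested on 2 detected markers. Doublets were kept; as an alternative, barcodes with the highest Scrublet scores (scanpy 1.11.5) were removed at 0.8% per 1000 barcodes. UMIs were summed per class and library with at least 20 cells, and expressed as CPM with exact 95% Poisson intervals or as binomial shares. Classes were compared with edgeR 4.0.16 (TMM, filterByExpr, quasi-likelihood F test, Benjamini-Hochberg over all genes) in R 4.3.3, with library as a block, since both sums come from 1 library. Nothing says that libraries are separate cohorts, so p-values measure the spread between these libraries. DESeq2 1.42.0 was an alternative, and the fits were tested on simulated data.

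Other alternatives were RLE factors, no count filter, no block, 1 library left out, a 10% mitochondrial limit, a stricter gate, a floor of 4624 UMIs (the minimum of day 7), 2000 UMIs for thinning or none, a gate on Cxcr2 and Il1r2, other denominators for CPM and, chosen after the data were seen, removal of barcodes with Retnlg. The genes named are the 10 members, for each list the called genes with the largest and smallest change, and the 3 genes most like a member. Genes set against Ngp-rich barcodes came from these lists, and Marco, Ear2 and Mki67 were added after their values were seen. The members and the 6 lists were chosen with earlier results of these data known. Of the 43 listed genes, Cebpd was not analysed here. Promoters came from RefSeq (GRCm38.p6), trimmed to bases before both the RefSeq and GENCODE starts. Python 3.11.15 was used with matplotlib 3.10.9, pandas 2.3.3, scipy 1.17.1 and numpy 2.4.6.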

Additional observations from a re-analysis of the deposited data

How the results depend on the processing

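Neutrophils had the highest level in 32 of 50 member and library cases, and in 30 to 34 under the alternatives. Of 477 member values under alternatives, 445 kept direction and side of the threshold. The cause of the other changes was not tested, except that fewer libraries or cells enter some fits.

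Calls in neutrophils against classical monocytes went from 3089 to 1682 without the library block, to 1343, 1182 and 1583 without sham, day 3 and day 14 (4327 without day 7) and to 1501 with the day 7 floor. S100a1 turned to -0.05 with predicted doublets removed. Calls in classical monocytes against C1q macrophages went from 709 to 23 without the block, 1150 with DESeq2, 1674 with no count filter and 128 without day 7 (352-482 without another library). Calls in alveolar against C1q macrophages went from 5140 to 3404 without the block, where Ngp (0.41) and Camp (1.17) turned sign; Ngp turned to 0.24 without Retnlg barcodes. In epithelial cells against alveolar macrophages, S100a4 ranged from -0.18 (without day 7) to 0.76 and S100a8 from -0.69 to 0.42 (without day 28) with 1 library left out. S100a8 was called lower without Retnlg barcodes (-1.25, adjusted p = 0.0118).

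The mean share of neutrophils with a UMI went from 4.91 to 8.27% for Ngp without thinning, and for Lcn2 from 43.8 to 64.0% without thinning and 56.7% at 2000 UMIs.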
